A study of Mus musculus with 10 samples.

Results

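The HOX genes of the A, B, C and D clusters were followed in hematopoietic stem cells (HSC) from 5 AHR-KO mice and 5 WT mice. A gene was taken as a member when the array annotation gave the symbol Hoxa, Hoxb, Hoxc or Hoxd with digits only. Of 22180 genes read by a probe set that carries no other symbol, 36 met this rule, with 9 in the A cluster on chromosome 6, 10 in the B cluster on chromosome 11, 9 in the C cluster on chromosome 15 and 8 in the D cluster on chromosome 2. Hoxa11 and Hoxd4 were not analysed here, because their probe sets carried other symbols too.

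HOX genes encode homeodomain transcription factors that set position along the body axis of the embryo, and their order on the chromosome follows the order of the body regions in which they act. Genes with the same number in different clusters are paralogs. In mouse blood formation, A cluster genes and a few B cluster genes are active in stem and progenitor cells and are shut off as cells mature, with the MEIS and PBX proteins as DNA-binding partners. AHR, the aryl hydrocarbon receptor, is a ligand-activated factor that binds DNA with ARNT.

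All mice were C57BL/6J and 18 months old, and each gave 1 array. The AHR-KO mice carried the knockout in every tissue, so that HSC and the marrow cells around them both lacked the receptor. Lineage-negative bone marrow cells were sorted for the SLAM+ phenotype, and the RNA went through WT-Ovation PicoSL amplification and biotin labeling before hybridization to Affymetrix Mouse Gene 2.0 ST arrays. Levels are given as log2(signal + 16), in which 16 is a constant that damps noise in dim probe sets. A difference of 1 on this scale is close to 2-fold in bright genes and stands for a larger ratio in dim ones.

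The targeted gene did not separate the labels. Ahr read 5.97 ± 0.52 in AHR-KO arrays and 5.74 ± 0.74 in WT arrays (SD, n = 5 each), and which exons the allele lacks is unknown here, so each direction given for AHR-KO HSC relies on the genotype labels. Of 18 measured HSC identity markers, 17 lay above background, against 54.8% of all genes. So did 11 of 12 neutrophil markers and 12 of 14 monocyte, macrophage and dendritic cell markers. The same held for 8 of 8 erythroid, 7 of 7 endothelial and 6 of 7 megakaryocyte and platelet markers. Of markers of progenitors outside the sort gate, 5 of 6 did. Shares were lower for stromal (7 of 10), mast cell and basophil (5 of 8) and T and NK cell markers (5 of 8). B cell markers gave 2 of 7. The first principal component of all genes held 30.6% of the variance and placed 4 arrays (AHR-KO 1, AHR-KO 2, WT 1 and WT 5) on one side and 6 on the other. The 4 arrays had summed HSC identity signals of 6219 to 8174 and the other 6 had 3236 to 5565. Summed neutrophil signals were 4268 to 12522 in the 4 and 13884 to 29848 in the 6. Progenitors outside the sort gate summed to 1633 to 1997 in the 4 and 2388 to 3284 in the 6. Monocyte, macrophage and dendritic cell, T and NK cell, and endothelial sums were also lower in the 4, without overlap. Sums of the B cell, erythroid, mast cell, megakaryocyte and stromal lists overlapped between the sets. In RNA of a sorted population, fewer cells of a type and less RNA per cell cannot be told apart.

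More A cluster genes than genes of any other cluster lay above background in these HSC. The background level was set at 5.50, the 95th percentile of 1483 olfactory, taste, vomeronasal and hair-protein genes, which blood cells do not use. Mean levels of 16 of the 36 HOX genes lay above it, and 54.8% of all genes did. They comprised 7 of 9 A cluster genes (Hoxa3, Hoxa5, Hoxa6, Hoxa7, Hoxa9, Hoxa10 and Hoxa13), 3 of 10 B cluster genes (Hoxb4, Hoxb5 and Hoxb8), 2 of 9 C cluster genes (Hoxc10 and Hoxc12) and 4 of 8 D cluster genes (Hoxd3, Hoxd8, Hoxd10 and Hoxd11). By place along the clusters, 2 of 7 anterior genes (paralog groups 1 to 3), 7 of 14 central genes (4 to 8) and 7 of 15 posterior genes (9 to 13) were above background.

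A stricter level left fewer genes. Only 5 members exceeded 6.45, the 99th percentile of the same background genes: Hoxa9 at 7.83, Hoxa7 at 7.19, Hoxa13 at 6.92, Hoxd8 at 6.80 and Hoxd3 at 6.77. Hoxa9 and Hoxa7 are regulators of blood stem and progenitor cells, and Hoxa13, Hoxd8 and Hoxd3 are better known from the limb, trunk and axial skeleton. In every one of the 10 arrays, 9 members exceeded that array's own background level, with 5 from the A cluster, 1 from the B cluster, 3 from the D cluster and 0 from the C cluster. Levels of different probe sets are not comparable in amount, because each set of probes binds with its own strength, and a level above background does not by itself establish that the transcript was present.

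The remaining 20 members had mean levels between 4.49 and 5.50. These were Hoxa2, Hoxa4, Hoxb1, Hoxb2, Hoxb3, Hoxb6, Hoxb7, Hoxb9, Hoxb13, Hoxc4, Hoxc5, Hoxc6, Hoxc8, Hoxc9, Hoxc11, Hoxc13, Hoxd1, Hoxd9, Hoxd12 and Hoxd13. They include most of the B and C clusters, whose posterior members act in the tail region of the embryo. These levels come from probe sets with a single symbol. A probe set that carries both Hoxb3 and Hoxb2, left out by that rule, read 5.71 to 6.50, above the 5.50 level in every array. Of the sets shared by Hoxa11 and Hoxa11os, the brighter read 5.87 to 7.57 and the dimmer 4.52 to 5.66. A set shared by Hoxd4 and Hoxd3 read 4.97 to 5.92.

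**Figure D1:**
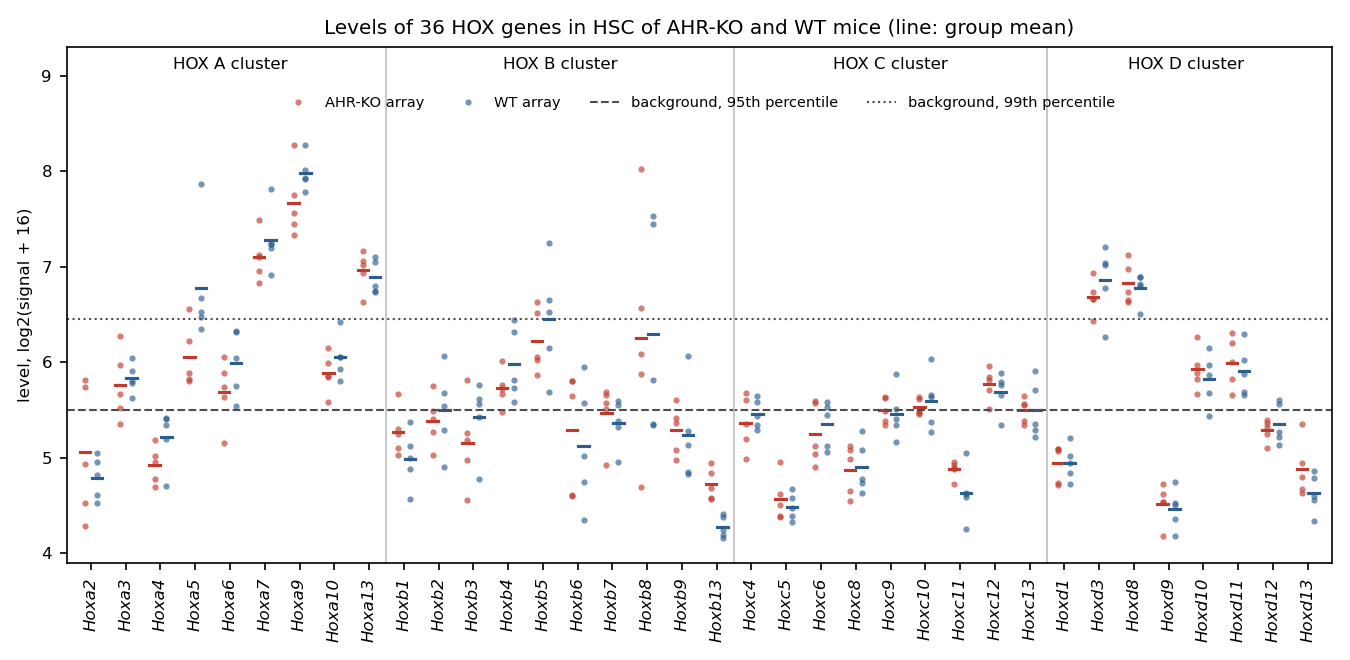
Level of each of 36 HOX genes as log2(signal + 16), by gene along the A, B, C and D clusters, with 1 point per array, AHR-KO arrays left of WT arrays and a bar at each group mean; the dashed and dotted lines are the 95th (5.50) and 99th (6.45) percentiles of the background genes. Hoxa7, Hoxa9, Hoxa13, Hoxd3 and Hoxd8 had means above the dotted line, and the C cluster lay near or below the dashed line.

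Promoters of the members were read from RefSeq for motifs that bear on AHR and on HOX proteins. RefSeq windows of 250 bases before to 50 bases after the start (build GRCm38.p6) matched 20 HOX genes in 22 windows. GCGTG, the core of the element that AHR and ARNT bind, was searched on both strands and occurred in 9 of the 22 windows (40.9%), against 32.4% of 32851 windows of all genes. TGATTNAT, a PBX-HOX site, occurred in 2 of the 22 (9.09%), in Hoxa2 and Hoxd11, against 3.22% of all windows. HOX windows were also richer in G and C, with a median of 58.7% against 52.7% over all windows. The pair CG, which GCGTG contains, occurred a median of 17 times in a HOX window against 7 over all windows.

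The windows of Hoxa5, which differed most between the groups among the 16 members above background, and of Hoxb4, a gene that expands HSC when it is overexpressed, are shown because each carries the AHR core, in capitals here. Hoxa5 lies on the minus strand at chr6:52204538-52204837 and Hoxb4 on the plus strand at chr11:96318017-96318316.
Hoxa5: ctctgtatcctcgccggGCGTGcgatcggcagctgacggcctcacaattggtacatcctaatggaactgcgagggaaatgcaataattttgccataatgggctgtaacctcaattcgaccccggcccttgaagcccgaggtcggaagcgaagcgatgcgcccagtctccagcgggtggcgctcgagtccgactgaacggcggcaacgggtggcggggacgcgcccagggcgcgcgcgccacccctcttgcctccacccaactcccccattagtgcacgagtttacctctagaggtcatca
Hoxb4: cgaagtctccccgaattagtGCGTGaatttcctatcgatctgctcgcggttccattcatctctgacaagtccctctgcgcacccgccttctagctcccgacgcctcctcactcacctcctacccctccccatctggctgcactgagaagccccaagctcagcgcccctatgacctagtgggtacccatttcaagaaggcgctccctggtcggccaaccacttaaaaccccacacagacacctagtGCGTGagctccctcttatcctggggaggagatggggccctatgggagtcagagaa
Hoxa5 held 1 core and Hoxb4 held 2, whereas the windows of Hoxa9 and Hoxb8 held 0. A match of this kind is a description of letters, and binding was not measured. Of the members above background, the 6 genes with a core in a window (Hoxa3, Hoxa5, Hoxa10, Hoxb4, Hoxd3 and Hoxd11) had AHR-KO minus WT differences of -0.72 to 0.09 with a median of -0.17, and the 7 with a window but no core had differences of -0.32 to 0.10 with a median of -0.05. The ranges overlapped, and Hoxa5 alone lay below the range of the genes without a core.

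The AHR-KO arrays were then compared with the WT arrays for each gene with limma, fitted on all 22180 genes. Hoxa5 was lower in AHR-KO HSC. The other members above background did not reach a 1.5-fold change at an unadjusted p below 0.05. This is called the study threshold here, although the paper also states an adjustment for multiple comparisons. Among all genes 0.343% passed that threshold as lower and 0.18% as higher, and among the 36 HOX genes 1 passed as lower and 0 as higher. An unadjusted p under 0.05 was reached by 2 HOX genes, Hoxa5 and Hoxb13, and by 3.74% of all genes. No HOX gene and no gene of the 22180 passed an adjusted p of 0.05, and the smallest adjusted p over all genes was 0.998.

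Hoxa5, which in human blood progenitors favors myeloid over erythroid fate, read 6.23, 6.55, 5.89, 5.82 and 5.80 in the AHR-KO arrays and 6.67, 6.48, 6.35, 6.53 and 7.86 in the WT arrays. The highest AHR-KO array exceeded 3 WT arrays, and 4 of the 5 AHR-KO arrays lay below every WT array. Means were 6.06 ± 0.33 in AHR-KO and 6.78 ± 0.62 in WT (SD, n = 5 each), a difference of -0.72 (SE 0.27, 95% interval -1.31 to -0.13, limma adjusted p = 0.998). The unadjusted limma p was 0.0214 and the exact permutation test, two-sided, gave p = 0.0317. In linear signal the means were 52.1 in AHR-KO and 103.5 in WT. WT replicate 5 stood far above the rest of its group, and without it the difference was -0.45 (SE 0.17), under 1.5-fold. Hoxa5 also missed the study threshold with the methods' t-test, on log2 and on linear signals, and with a constant of 64, where the difference was -0.47. The difference was -0.88 (SE 0.43) within the 4 arrays set apart (AHR-KO 1 and AHR-KO 2 against WT 1 and WT 5). It was -0.61 (SE 0.12) within the other 6, so it had the same sign in both. The fit within the 4 includes WT replicate 5. Both fits reuse arrays of the main comparison and are not independent repeats. HSC identity scores, the mean log2 deviation of those markers from their means over all arrays, ranged from -0.57 to 0.48 in AHR-KO arrays and from -0.21 to 0.54 in WT arrays, with 16 of the 18 markers lower in AHR-KO, and their part in the Hoxa5 difference was not tested.

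**Figure D2:**
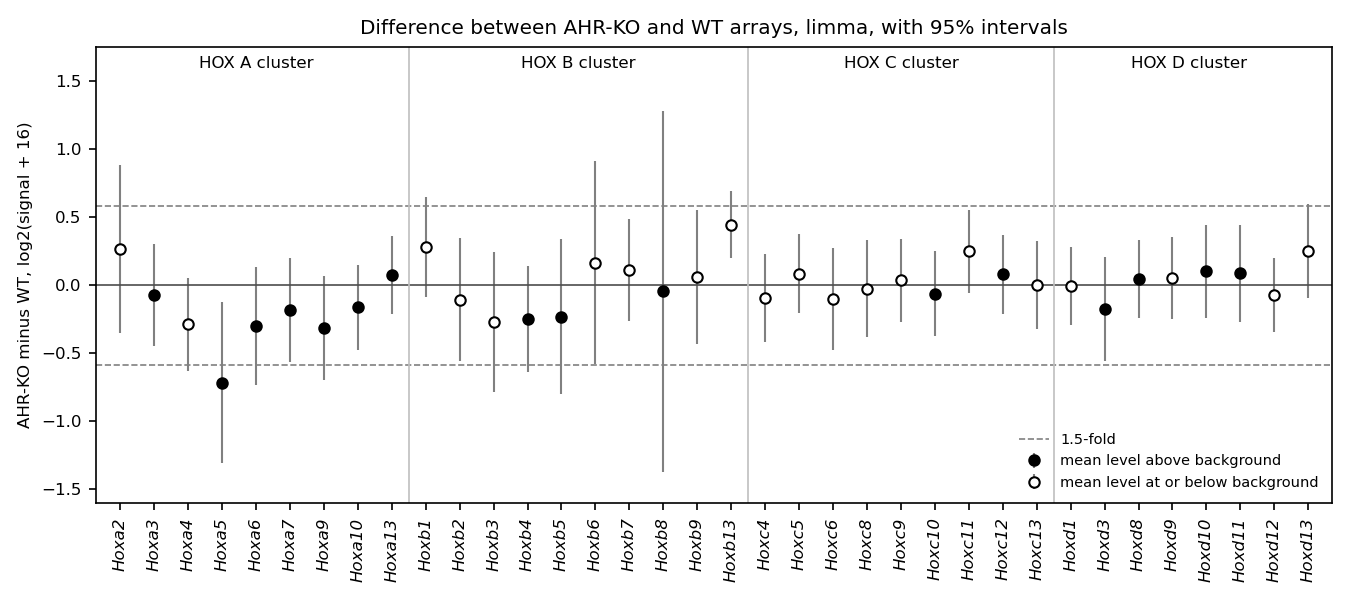
Difference AHR-KO minus WT in log2(signal + 16) for each of 36 HOX genes with its 95% interval from limma; filled points are the 16 genes with a mean level above background, open points the other 20, and dashed lines mark 1.5-fold. Hoxa5 at -0.72 is the only point outside the dashed lines, Hoxb13 at 0.44 has an interval above 0, and Hoxb8 has the widest interval.

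Hoxa9, which HSC need for repopulation and which is a common driver of myeloid leukemia, read 7.56, 8.27, 7.44, 7.75 and 7.33 in the AHR-KO arrays and 8.02, 7.93, 7.92, 7.78 and 8.28 in the WT arrays. It was thus below all WT arrays in 4 of 5 AHR-KO arrays, while AHR-KO replicate 2 lay with the highest WT array. Means were 7.67 ± 0.37 in AHR-KO and 7.99 ± 0.18 in WT, a difference of -0.32 (SE 0.17, 95% interval -0.70 to 0.07, limma adjusted p = 0.998, exact permutation p = 0.119, two-sided, n = 5 each). Without AHR-KO replicate 2 the difference was -0.46 (SE 0.13), and it was -0.23 (SE 0.31) within the 4 arrays set apart and -0.37 (SE 0.15) within the other 6.

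Hoxa10, which expands myeloid progenitors when overexpressed in mouse marrow, read 6.00, 6.15, 5.85, 5.86 and 5.59 in AHR-KO arrays and 6.42, 5.81, 5.93, 6.05 and 6.05 in WT arrays. Hoxa7, another A cluster gene of early progenitors, read 7.49, 6.95, 7.13, 7.10 and 6.83 in AHR-KO arrays and 6.91, 7.24, 7.19, 7.24 and 7.82 in WT arrays. Both sets of values overlapped between the groups. The differences were -0.16 (95% interval -0.48 to 0.15) for Hoxa10 and -0.18 (-0.56 to 0.20) for Hoxa7. Single arrays moved them, to -0.07 for Hoxa10 without WT replicate 1 and to -0.045 for Hoxa7 without WT replicate 5.

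Hoxa6, which lies between Hoxa5 and Hoxa7, read 5.16, 5.88, 6.05, 5.74 and 5.63 in AHR-KO arrays and 6.04, 6.32, 5.75, 6.33 and 5.55 in WT arrays, a difference of -0.30 (95% interval -0.74 to 0.13) that was -0.17 without AHR-KO replicate 1. Hoxa3, an anterior gene of the pharyngeal region, averaged 5.76 ± 0.37 in AHR-KO and 5.83 ± 0.16 in WT. Hoxa13, a gene of the distal limb and genital tubercle, averaged 6.96 ± 0.20 in AHR-KO and 6.89 ± 0.17 in WT. Of the 7 A cluster genes above background 6 had a lower mean in AHR-KO, and only Hoxa5 passed the study threshold.

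In the B cluster, Hoxb4 read 5.72, 6.01, 5.67, 5.48 and 5.76 in AHR-KO arrays and 5.59, 6.32, 5.82, 5.73 and 6.44 in WT arrays. The difference was -0.25 (SE 0.18, 95% interval -0.64 to 0.14), with overlap of the groups, and it was -0.13 without WT replicate 5. Hoxb5, whose reporter marks long-term HSC in mice, read 6.63, 6.52, 5.87, 6.06 and 6.03 in AHR-KO arrays and 7.25, 6.15, 5.69, 6.53 and 6.65 in WT arrays, a difference of -0.23 (SE 0.26, 95% interval -0.80 to 0.34). A second Hoxb5 probe set, dimmer and not used for the gene's level, read 6.28, 6.39, 5.74, 5.41 and 5.53 in AHR-KO arrays and 6.29, 5.46, 5.78, 6.29 and 6.24 in WT arrays. Leaving out WT replicate 1 made the difference of the brighter set -0.036, and leaving out WT replicate 3 made it -0.42. The groups overlapped on both probe sets, and with the mean of both sets the difference was -0.19.

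**Figure D3:**
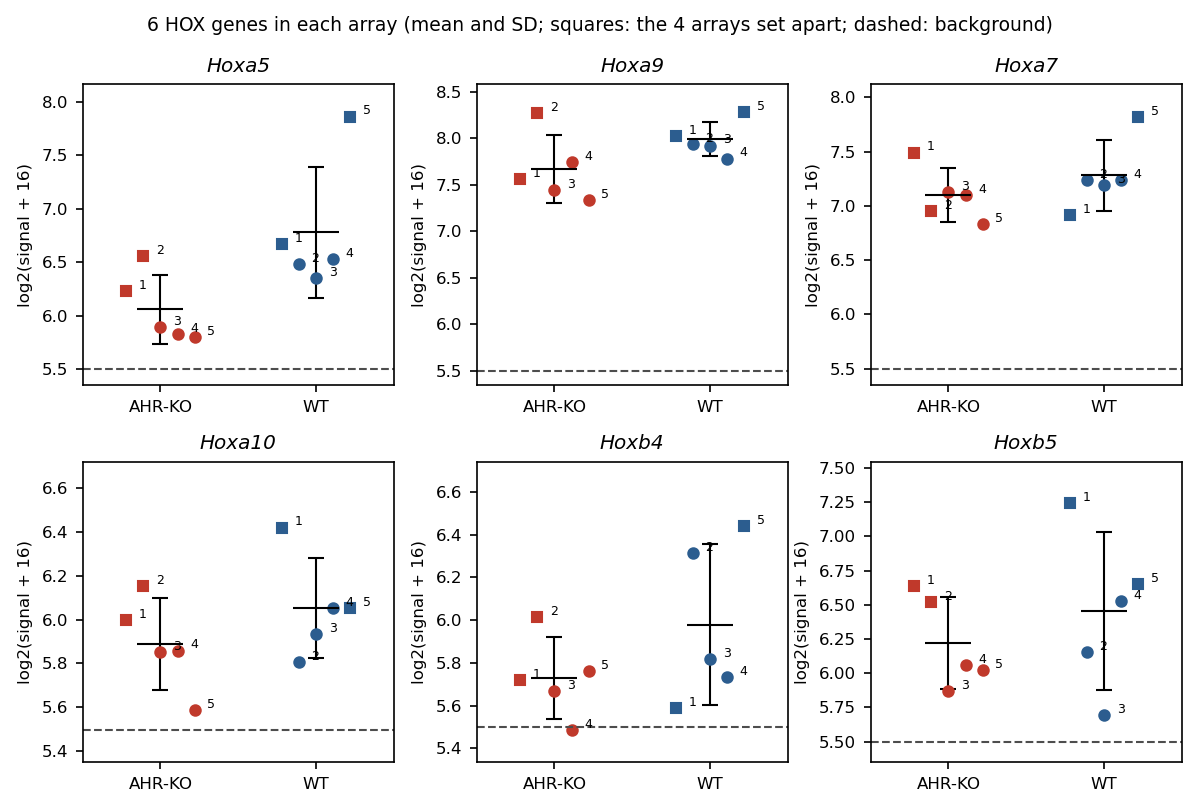
Level of Hoxa5, Hoxa9, Hoxa7, Hoxa10, Hoxb4 and Hoxb5 as log2(signal + 16) in each array, AHR-KO left and WT right, with replicate numbers beside the points, mean and SD as bars, squares for the 4 arrays that the first principal component sets apart, and the background level dashed. For Hoxa5, 4 of 5 AHR-KO arrays lie below all WT arrays and WT replicate 5 stands alone at 7.86.

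In the D cluster, Hoxd3, an anterior gene of the neck vertebrae, read 6.94, 6.66, 6.43, 6.66 and 6.73 in AHR-KO arrays and 7.02, 7.04, 6.78, 6.26 and 7.20 in WT arrays. Its 5 AHR-KO values lay below the WT median, WT replicate 4 was the lowest of all, and the difference was -0.18 (SE 0.17, 95% interval -0.56 to 0.20), or -0.09 without WT replicate 5 and -0.32 without WT replicate 4. Hoxd8 averaged 6.83 ± 0.22 in AHR-KO and 6.78 ± 0.16 in WT. Hoxd10 averaged 5.93 ± 0.22 in AHR-KO and 5.82 ± 0.27 in WT, and Hoxd11, like it a limb gene, 6.00 ± 0.27 in AHR-KO and 5.91 ± 0.26 in WT (SD, n = 5 each). None of these passed an unadjusted p of 0.05. In the C cluster, Hoxc10 averaged 5.53 ± 0.08 in AHR-KO and 5.59 ± 0.30 in WT. Hoxc12 averaged 5.77 ± 0.17 in AHR-KO and 5.69 ± 0.21 in WT. Both were within reach of the background level. Over all arrays Hoxc12 averaged 5.73, and Hoxa3 (5.79), Hoxa6 (5.84), Hoxb4 (5.85) and Hoxd10 (5.87) lay little higher.

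Taking the 16 members above background as a list, 11 had a lower and 5 a higher mean in AHR-KO, and their median difference was -0.12. Leaving out each array in turn gave medians of -0.18 to -0.06. It moved by over 1.5 times when AHR-KO 2 (-0.18), AHR-KO 5 (-0.07), WT 1 (-0.06), WT 3 (-0.18), WT 4 (-0.18) or WT 5 (-0.07) was the array left out. Of all 12149 genes above background 47.6% had a lower mean, and the median difference was 0.01. The 5 higher members were Hoxa13, Hoxc12, Hoxd8, Hoxd10 and Hoxd11, all of the central or posterior groups. All but 2 of the 16 belong to those groups. The differences of the 5 higher members, 0.05 to 0.10, were smaller than their standard errors. Over all 36 members 17 were higher and 19 lower. In single arrays, the median deviation of the 16 members from their means over all arrays was -0.22 to 0.17 in AHR-KO and -0.17 to 0.33 in WT, with overlap. By array set it was 0.09 to 0.33 in the 4 arrays set apart, against -0.22 to -0.02 in the other 6. The sets did not overlap, as with the HSC identity score. The sets were defined from all genes, these included, so part of such a separation is built in. Of 8 mast cell and basophil markers, 3 (Mcpt8, Cpa3 and Prss34) passed the study threshold as lower in AHR-KO, against 0.343% of all genes. Of the 8, 6 had a lower and 2 a higher mean in AHR-KO. The summed signals of the 8 were 744 to 2891 in AHR-KO and 1835 to 4456 in WT, with overlap. Among the other marker lists, 1 of 7 endothelial markers passed as higher and 1 of 10 stromal markers as lower. The part of the array sets and of these markers in the median of the HOX genes was not tested.

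Hoxb13, a posterior gene known from prostate and tail, was the only member whose groups did not overlap, against 0.681% of all genes. It read 4.68, 4.58, 4.84, 4.57 and 4.94 in AHR-KO arrays and 4.16, 4.41, 4.38, 4.25 and 4.20 in WT arrays, all below the background level. The difference was 0.44 (SE 0.11, limma p = 0.00209, adjusted p = 0.998), and the exact permutation test, two-sided, gave p = 0.00794, the smallest that 5 against 5 arrays allow. Every gene whose groups do not overlap gets this same permutation p. Hoxb13 was added after its values were seen, so its permutation p restates the lack of overlap and is not further evidence. Linear signals averaged 10.6 in AHR-KO and 3.47 in WT, both within the range of genes that blood does not use. The log2 difference depended on the added constant, being 1.40 with a constant of 1 and 0.14 with 64.

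The widest spread among the members was that of Hoxb8, and it went with the array sets more than with genotype. Hoxb8, which blocks myeloid differentiation when it is overexpressed in mouse progenitors, read 6.09, 8.02, 6.57, 5.87 and 4.69 in AHR-KO arrays and 7.44, 5.35, 5.81, 5.35 and 7.53 in WT arrays. The difference between the groups was -0.05 (SE 0.61, 95% interval -1.37 to 1.28), an interval that leaves room for more than 2-fold either way. Its SD over the 10 arrays was 1.09, larger than that of 99.3% of genes above background. In the 4 arrays set apart it averaged 7.27 and in the other 6 it averaged 5.61, and AHR-KO replicates 1 and 3 made the sets overlap.

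Hoxb6, the neighbor of Hoxb5 and Hoxb7, ran the other way. It read 4.61, 4.60, 5.80, 5.65 and 5.81 in AHR-KO arrays and 4.35, 5.95, 5.02, 5.57 and 4.75 in WT arrays, so the 4 arrays set apart held its 4 lowest values. The sets did not overlap, with levels of 4.35 to 4.75 for the 4 arrays against 5.02 to 5.95 for the other 6, a difference of -1.06 between the means. Its mean of 5.21 over all arrays lay below background, and 5 arrays were above their own background level. The AHR-KO minus WT difference was 0.16 (95% interval -0.58 to 0.91).

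Hoxb5 averaged 6.76 in the 4 arrays and 6.05 in the other 6, with overlap through AHR-KO replicate 2 and WT replicate 4. Hoxa13 averaged 7.09 in the 4 arrays and 6.81 in the 6, and Hoxd11 averaged 6.21 in the 4 arrays and 5.78 in the 6, both without overlap. So 3 of 36 members, Hoxa13, Hoxb6 and Hoxd11, had no overlap between the sets, against 7.26% of all genes, and of those above background 2 of 16 had none, against 9.7% of all genes above background. HSC identity scores ranged from 0.06 to 0.54 over the 4 arrays, against -0.57 to 0.04 over the 6. Neutrophil scores ranged from -1.70 to -0.56 over the 4 arrays, against -0.09 to 1.93 over the 6. The HOX and marker genes were among those that defined the sets, so part of these separations is built in. The part of the marker differences in the HOX values was not tested.

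**Figure D4:**
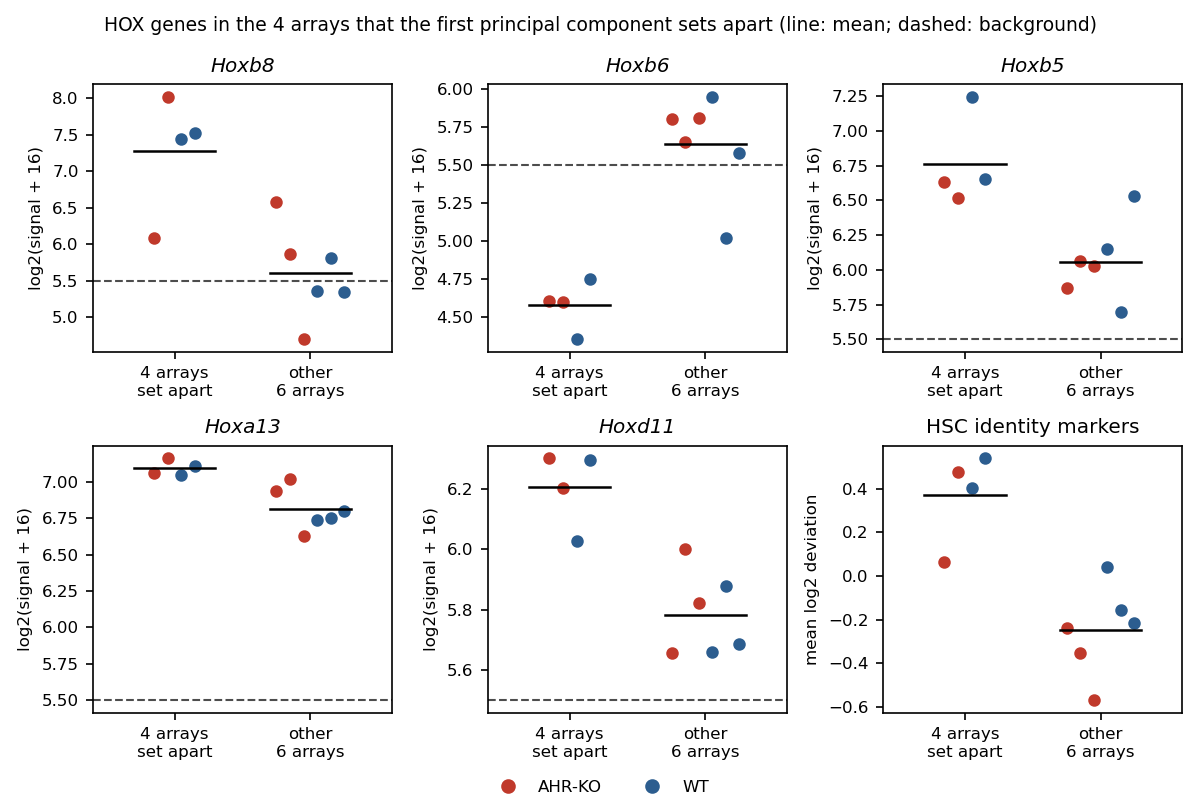
Level of Hoxb8, Hoxb6, Hoxb5, Hoxa13 and Hoxd11 as log2(signal + 16), and the mean log2 deviation of the HSC identity markers, in the 4 arrays set apart by the first principal component (left) and the other 6 (right), with AHR-KO and WT arrays in different colors, a line at each mean and background dashed. Hoxb6 is lower in all 4 arrays and Hoxb8 is higher in 3 of them than in any of the other 6.

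Hoxa2, below background on average, differed between the sets in how it followed genotype. It read 5.74, 5.82, 4.28, 4.53 and 4.93 in AHR-KO arrays and 4.62, 4.95, 4.82, 5.05 and 4.52 in WT arrays, so that AHR-KO replicates 1 and 2 alone were above background. The AHR-KO minus WT difference was 1.21 (SE 0.20) within the 4 arrays and -0.36 (SE 0.18) within the other 6, and the difference between these was not tested.

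Noncoding genes of the clusters lay at background. Of 18 listed, 7 were measured and 0 exceeded the background level, with 2 higher and 5 lower in AHR-KO and 0 past the study threshold. The clusters carry microRNAs of the miR-10 and miR-196 families, of which miR-196 directs cleavage of Hoxb8 mRNA in mouse embryos. They are shown, from RefSeq (GRCm38.p6), because members from different clusters share a seed, bases 2 to 8, in capitals.
miR-196a-5p: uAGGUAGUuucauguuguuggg
miR-196b-5p: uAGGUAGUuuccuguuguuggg
miR-10a-5p: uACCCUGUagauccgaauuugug
miR-10b-5p: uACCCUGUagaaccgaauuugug
The B and C clusters each hold a gene of miR-196a (chr11:96265187-96265208 and chr15:102973365-102973386, plus strand), and miR-196b lies in the A cluster (chr6:52230129-52230150, minus strand). miR-10a lies in the B cluster (chr11:96317186-96317208, plus strand) and miR-10b in the D cluster (chr2:74726074-74726096, plus strand). The array probe sets read the loci and not the mature forms. Mir196a-1 averaged 5.27 ± 0.14 in AHR-KO and 5.46 ± 0.29 in WT, and Mir196a-2 averaged 5.30 ± 0.38 in AHR-KO and 5.16 ± 0.19 in WT (SD, n = 5 each), with overlap. Mir10b read 4.04 ± 0.05 in AHR-KO and 4.16 ± 0.11 in WT, and Mir10a and Mir196b were not analysed here.

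The cofactors of HOX proteins were measured alongside. Of 11 TALE-family genes measured 10 exceeded background, with 7 higher and 4 lower in AHR-KO and 0 past the study threshold. Meis1, the cofactor that acts with Hoxa9 in HSC, read 9.23, 9.05, 9.08, 8.80 and 8.49 in AHR-KO arrays and 9.16, 9.09, 8.93, 8.96 and 9.13 in WT arrays. The groups overlapped, with a difference of -0.13 (SE 0.14, 95% interval -0.44 to 0.19).

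Regulators upstream of the clusters gave 18 higher and 14 lower genes of 32, with a median difference of 0.01 and 0 past the study threshold. Kmt2a, the methyltransferase that keeps HOX genes active, averaged 7.45 ± 0.26 in AHR-KO and 7.80 ± 0.45 in WT, a difference of -0.35 (SE 0.21, 95% interval -0.80 to 0.11). Men1, which tethers that enzyme, averaged 7.40 ± 0.55 in AHR-KO and 7.47 ± 0.32 in WT. Kdm6b, a demethylase of the repressive mark on histone H3, was chosen after its values were seen, as the only gene of the noncoding, cofactor, regulator and neighbor lists whose groups did not overlap, against 0.681% of all genes. It read 7.12, 7.11, 7.40, 7.42 and 7.04 in AHR-KO arrays and 7.62, 7.42, 7.61, 7.80 and 7.43 in WT arrays, with the highest AHR-KO and the lowest WT values equal to the second decimal. The difference of -0.36 (SE 0.12, limma adjusted p = 0.998) is under 1.5-fold.

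Genes beside the clusters and other homeobox genes were split evenly, with 11 higher and 10 lower of 21 measured, a median difference of 0.0024 and 0 past the study threshold. Skap2, which adjoins the A cluster, averaged 9.45 ± 0.30 in AHR-KO and 9.37 ± 0.18 in WT, and Mtx2, which adjoins the D cluster, averaged 7.86 ± 0.41 in AHR-KO and 7.77 ± 0.38 in WT. Both overlapped between the groups.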

How the data were processed

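Affymetrix Mouse Gene 2.0 ST arrays of 5 AHR-KO and 5 WT mice were used. The authors deposited linear intensity values, 1 per probe set and array, made with Affymetrix Expression Console according to the submitters' processing notes. For microarrays in general the methods name IterPLIER with subtraction of background and quantile normalization. Whether that holds for the AHR-KO arrays is not given in the sources used here, nor is a software version. All 10 arrays share a median of 24.65, so a change common to most genes cannot be seen. Precision is limited by the number of arrays.

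Symbols came from the annotation of the platform, which gave 1 symbol to 23521 of 41345 probe sets. The brightest probe set represented each of the 22180 genes. log2(signal + 16) was tested with limma 3.58.1 (lmFit and eBayes, R 4.3.3) with Benjamini-Hochberg adjustment over all genes. The methods name a 1.5-fold change with P under 0.05. With unadjusted p it is here called the study threshold. The paper also says that its microarray analyses were adjusted for multiple comparisons. Whether its rule was applied in this form to the AHR-KO arrays is not stated. HOX genes were also compared one by one with an exact permutation test over arrays in SciPy 1.17.1. The limma step was first tested on simulated data of known change. RefSeq names and sequences are of GRCm38.p6.

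Array sets follow the sign of the first principal component of all genes, known from earlier results. Members and gene lists were chosen with earlier results of these data known. Values in every array are given for the 8 members above background with the largest differences, known HSC regulators and members past the study threshold, and Hoxa2, Hoxb8 and Hoxb13 were added after their values were seen. Of cofactors and upstream regulators, genes past the study threshold and Meis1, Kmt2a and Men1 were to be named, and Skap2 and Mtx2 were added as neighbors. Alternatives were other constants, another quantile normalization, a filter on level, the mean of probe sets, the replicate block, array sets, array weights, other variance models, Student's test (the methods' t-test) and each array left out. Nothing says that same-numbered mice were related.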

Additional observations from a re-analysis of the deposited data

Results flagged for a closer look

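In 72 groups of 5 arrays (36 HOX genes in AHR-KO and in WT), 3 arrays stood apart from the rest of their group by Dixon's criterion, which chance alone meets in about 1 in 20 groups. Hoxa5 read 7.86 in WT replicate 5, where the next highest WT array read 6.67. Hoxb7, below background on average, read 4.92 in AHR-KO replicate 5, where the next lowest AHR-KO array read 5.51. Hoxd8 read 6.51 in WT replicate 2, where the next lowest WT array read 6.80.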

How the results depend on the processing

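The number of HOX genes past the study threshold, 1 (Hoxa5), was 2 with a constant of 1 (Hoxa5 and Hoxb13), 0 with a constant of 64, 0 with the methods' t-test, 2 within the 6 arrays (Hoxa5 and Hoxb3) and 0 to 1 with each array left out, and was lost without WT replicate 5. With the t-test on linear signals, chosen after seeing the data, the 1 gene was Hoxb13 and not Hoxa5. Within the 4 arrays it was Hoxa2. Of all 22180 genes, 116 passed this threshold in the main fit, 574 with a constant of 1 and 16 with 64. The count over all genes was 75 with the methods' t-test and 368 with that test on linear signals. It was 331 within the 6 arrays, 845 within the 4 and 99 without WT replicate 5. The number at an unadjusted p under 0.05, 2, became 1 with genes above background only, 1 with the methods' t-test, 1 with that test on linear signals, 4 with array weights (Hoxa5, Hoxa9, Hoxb13 and Hoxc11), 5 within the 6 arrays (Hoxa3, Hoxa5, Hoxa9, Hoxb3 and Hoxb13) and 1 within the 4. The 16 members above background became 5 at the 99th percentile and 9 when every array had to exceed its own level. The count at an adjusted p of 0.05 was 0 under all of these settings.

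Directions changed for small differences. Hoxa3 was 0.42 within the 4 arrays and -0.20 to 0.029 with each array left out. Hoxb8 was 0.18 with array weights, 0.21 within the 6 arrays, 0.039 with the t-test on linear signals and -0.49 to 0.34 with each array left out. Hoxc10 was 0.037 within the 6 arrays and -0.14 to 0.047 with each array left out. The same ranges were -0.030 to 0.37 for Hoxb6, -0.0080 to 0.14 for Hoxc12 and -0.030 to 0.093 for Hoxd8. The cause was not tested. With the replicate block Hoxa5 stayed at -0.72 (SE 0.27) and 1 gene passed the study threshold. Correlations between same-numbered mice were -0.20 to 0.35, and 3 of 5 exceeded 0.1. The pairs above 0.1 (numbers 1, 3 and 4) each lay within the same array set, and pairs 2 and 5 spanned both sets. These correlations therefore cannot tell whether the numbers mark pairs. As no source says that a number marks a shared litter or day, the numbers were not taken as pairs.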
